A study of Homo sapiens with 6 samples.

Results

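The mRNAs of respiratory complexes II to V were examined in HCT116 cells that stably expressed the K29Q form of PHF5A, set against cells that stably expressed wild-type PHF5A. Genes were taken by symbol. The set held SDHA, SDHB, SDHC, SDHD, CYC1, MT-CYB and all symbols with the prefix ATP5, UQCR, MT-CO, MT-ATP, COX4I or COX5 through COX8, without symbols that end in P and digits, which mainly name pseudogenes. Of 60675 gene rows in the deposited table, 55 matched. Of these, 45 reached 1 FPKM (fragments counted relative to transcript length and library size) in 3 or more libraries and form the set described here, out of 13261 genes that passed the same filter. The members were thus selected on their measured FPKM, and all 45 reached 1 FPKM in all 6 libraries. They comprised 4 subunit genes of complex II, 9 nuclear-encoded genes of complex III, 12 of complex IV, 16 of complex V, and 4 mitochondrially encoded genes (MT-CO1, MT-CO2, MT-CO3 and MT-CYB). MT-ATP6 and MT-ATP8, the mitochondrially encoded subunits of complex V, end in P and a digit and are therefore not members by the letter of the rule. Their values are given beside those of the members.

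Complex II (succinate dehydrogenase) oxidises succinate within the tricarboxylic acid cycle and passes the electrons to ubiquinone. Complex III (the cytochrome bc1 complex) carries them from ubiquinol to cytochrome c, complex IV (cytochrome c oxidase) passes them to oxygen, and complex V (ATP synthase) makes ATP from the proton gradient that complexes III and IV help to build. All subunits of complex II come from nuclear genes, whereas complexes III, IV and V combine nuclear-encoded subunits with a few made from mitochondrial DNA. NRF1 and the ETS factor GABP are known activators of many of the nuclear genes.

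HCT116 is an established cell line from a human colon carcinoma. PHF5A belongs to SF3B, the splicing complex that lets the U2 snRNP bind the branch site of introns, and the K29Q form carries glutamine in place of a lysine, a change commonly used to mimic acetylation. Total RNA was sequenced from 3 libraries of PHF5A K29Q cells (K29Q 1 to 3) and 3 libraries of PHF5A WT cells (WT 1 to 3), both grown in the same serum-supplemented medium. Removal of the cells' own PHF5A is not stated, nor are the promoter of the introduced gene, whether each group was 1 clone, and whether replicate libraries are separate cultures. The p-values therefore set the group difference against the spread of these libraries within each group, and that spread may be technical.

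Library FPKM sums lay between 249030 and 253450, and 12916 to 13298 genes reached 1 FPKM per library. Depth is not stated. If the steps in the FPKM values of single-exon genes are 1 fragment each, the best-matching depth in the range searched was 33500000 (K29Q 3) to 39900000 (K29Q 2) fragments. The run names in the column headers put K29Q 1, K29Q 2 and WT 2 on 1 flow cell (A) and K29Q 3, WT 1 and WT 3 on another (B). WT 2 was thus the only WT library on A, and K29Q 3 the only K29Q library on B. Each difference split by flow cell therefore rests on a single library in a group. PHF5A itself had 41.4, 45.9 and 45.04 FPKM in K29Q 1 to 3, against 32.4, 34.4 and 32.7 FPKM in WT 1 to 3 (log2 difference 0.40, SE 0.064, limma adjusted p = 0.11), and gene totals cannot tell the mutant from the wild-type mRNA. Of 6 epithelial markers, 5 (EPCAM, KRT8, KRT18, KRT19 and CDH1) averaged at least 1 FPKM, and VIL1 was under 0.1. Their summed level was 1143 to 1196 FPKM in K29Q libraries, against 1244 to 1396 in WT libraries, and the part of this in the results below was not tested. Of 6 leukocyte markers 1 averaged at least 1 FPKM (summed level 1.80 to 2.28 in K29Q, 1.82 to 2.32 in WT), and of 7 fibroblast and endothelial markers 1 did (4.85 to 6.24 in K29Q, 4.74 to 5.68 in WT).

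To ask whether expression of the K29Q form was accompanied by a change in the respiratory chain, each member was compared between the groups with limma on log2(FPKM + 1) values of all 13261 genes. No member passed the threshold of an adjusted p of 0.05. The count was 0 of 45, where 0.0528% of all genes tested (7 of 13261) passed, and 1 member, COX6B2, had an unadjusted p under 0.05, where 12.5% of all genes did. Of the 41 nuclear-encoded members, 33 had a log2 difference (K29Q minus WT) below 0 and 8 above, with a median of −0.052. The 4 mitochondrially encoded members all lay above 0 with a median of 0.064. That median was 0 after quantile normalization, which gives rows of equal rank equal values. This 0 is therefore not read as a result about these genes. The nuclear-encoded count and median moved with the libraries and the scaling. Without WT 2, 25 of 41 lay below 0 with a median of −0.012, and without K29Q 1, 25 did with a median of −0.020. With quantile normalization 25 lay below 0 (median −0.015), and with the MT- rows removed and each library rescaled 24 did (median −0.017). Without both K29Q 1 and WT 3, which stood apart for several members, 31 did (median −0.042). Over all genes tested, 6502 of 13261 (49%) lay below 0 and the median was 0.0030. That median also moved with the scaling, to −0.011 with quantile normalization and 0.032 with the MT- rows removed. The members were chosen with earlier results of these data known, so these counts are a description and carry no test. FPKM of a bulk culture also cannot tell fewer expressing cells from less RNA per cell.

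The 95% confidence interval of the difference reached 0 for every member except COX6B2. On the log2(FPKM + 1) scale it stayed within 1.25-fold in either direction for 34 of the 45 members, and within 1.5-fold for 44. The exception at 1.5-fold was ATP5G2, where 1 library stood apart. The added 1 narrows the fold of low members, so for COX6B2 these limits are not shown to hold for FPKM itself. Groups did not overlap for 4 members that were lower in K29Q (COX6B2, UQCRQ, UQCR11 and ATP5H), against 9% of all genes, and for 2 that were higher (MT-CYB and ATP5D), against 8.8% of all genes. In total 13.3% of the members had groups that did not overlap, and 17.8% of all genes did.

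**Figure D1:**
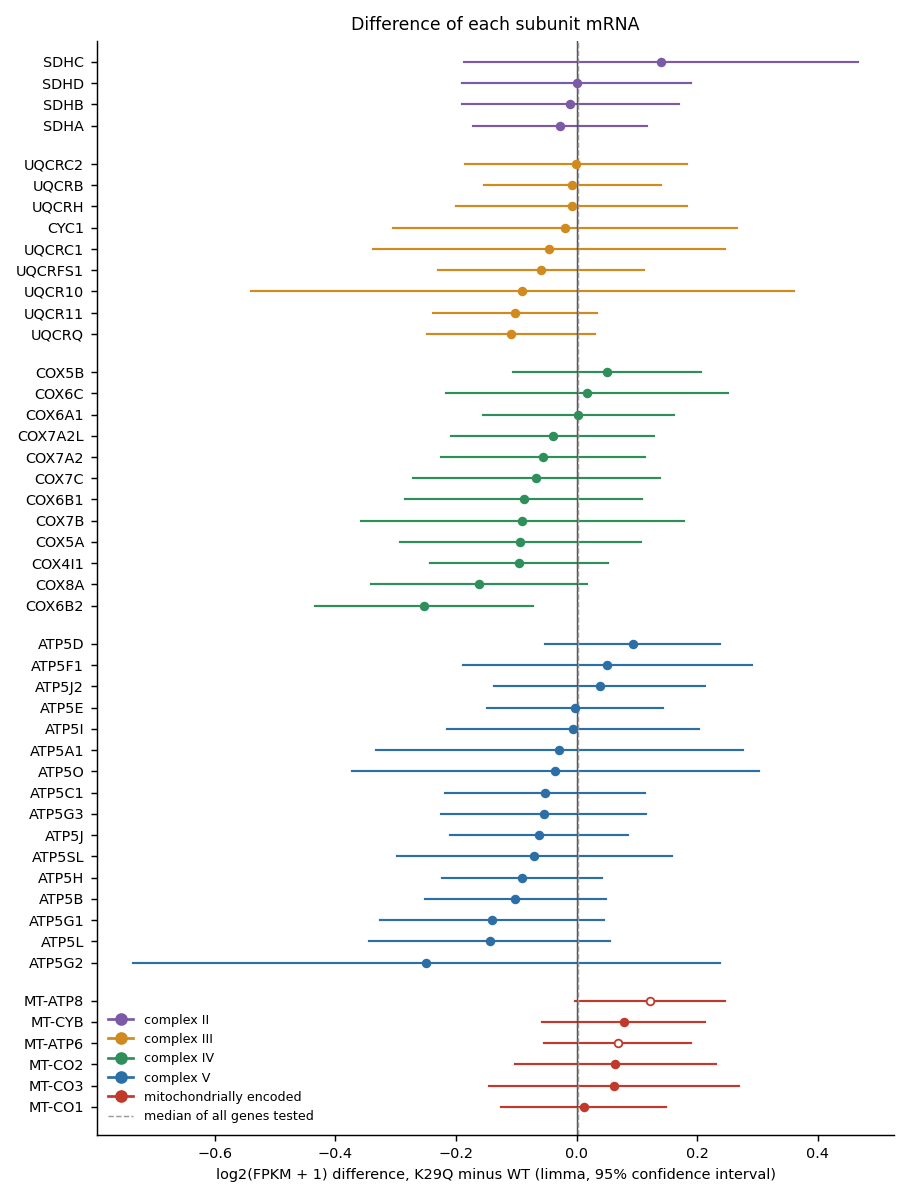
Difference of each subunit mRNA between K29Q and WT (horizontal axis, log2(FPKM + 1) difference, K29Q minus WT), by complex; points are limma estimates, lines are 95% confidence intervals, and open points mark MT-ATP6 and MT-ATP8, which are not members. Of the 41 nuclear-encoded members, 33 lie below 0, and COX6B2 is the member whose interval does not reach 0.

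Levels differed far more between subunits of a complex than between the groups. Mean FPKM, which is scaled by transcript length, ran from 7.35 (SDHC) to 24.8 (SDHB) in complex II, from 16.6 (UQCRB) to 134.9 (CYC1) among the nuclear-encoded subunits of complex III, from 1.36 (COX6B2) to 307.6 (COX8A) in complex IV and from 9.70 (ATP5SL) to 246.8 (ATP5B) in complex V. The mitochondrially encoded members stood above all of these, from 1802 FPKM for MT-CYB to 6116 FPKM for MT-CO2. The median of the 41 nuclear-encoded members was 36.3 FPKM. Genes are named below by a fixed rule (the smallest p and the highest level in each complex, and members of isoform families), and all other members with values below were added for description after their values were seen.

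**Figure D2:**
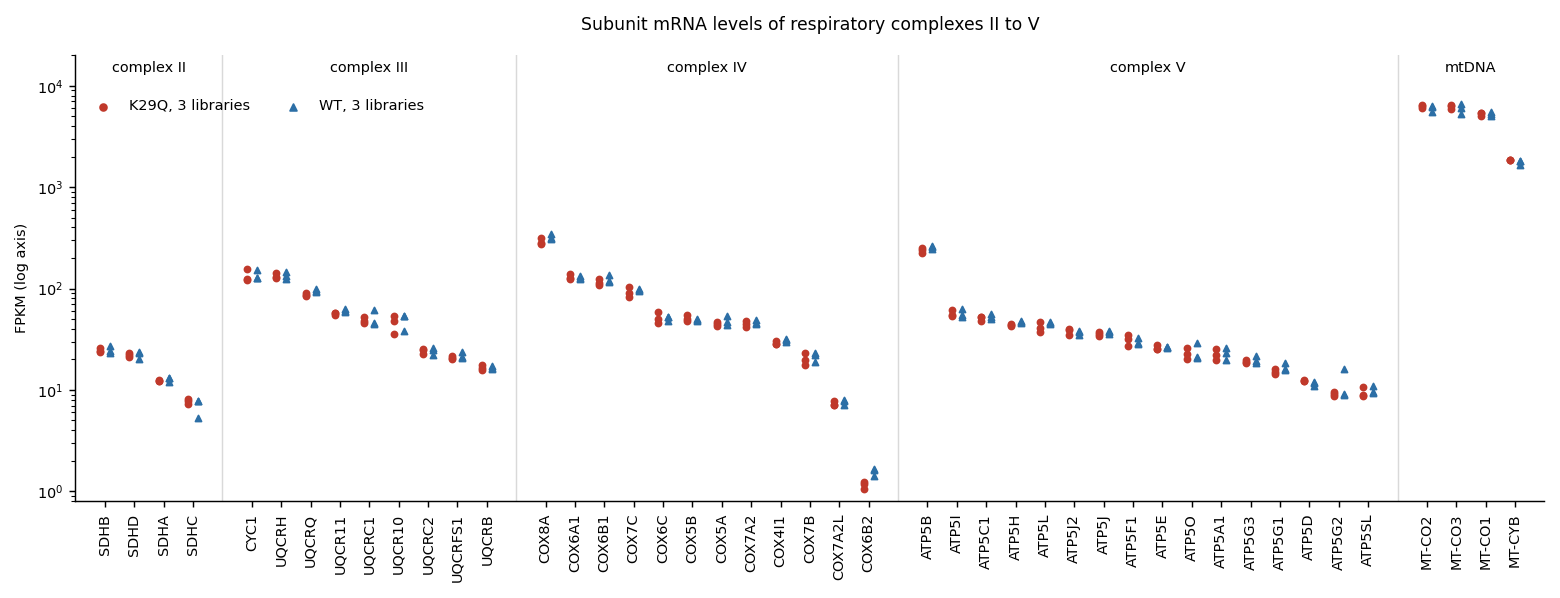
FPKM (log axis) of the 45 members in each library, ordered by mean level within each complex; red circles are the 3 K29Q libraries and blue triangles the 3 WT libraries. Levels within complex IV run from 1.36 FPKM for COX6B2 to 307.6 FPKM for COX8A, while the groups lie close together for nearly every gene.

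Of the 4 genes of complex II, 2 had a difference above and 2 below 0, and the median on the log2 scale was −0.0050. SDHA, the flavoprotein that oxidises succinate, had 12.4, 12.4 and 12.6 FPKM in K29Q 1 to 3, against 11.97, 13.0 and 13.1 FPKM in WT 1 to 3. SDHB, the iron-sulphur subunit, had 23.6, 25.99 and 24.3 FPKM in K29Q, against 24.4, 27.0 and 23.2 FPKM in WT. Both genes overlapped between the groups, with log2 differences of −0.027 (SE 0.061, limma adjusted p = 0.873) and −0.010 (SE 0.076, adjusted p = 0.966). The membrane anchor SDHD had 21.0, 23.2 and 22.3 FPKM in K29Q, against 20.0, 23.1 and 23.5 FPKM in WT. SDHC, the other membrane anchor, had 7.21, 8.13 and 7.78 FPKM in K29Q, against 7.83, 7.84 and 5.30 FPKM in WT. WT 3 alone was low for SDHC, and the log2 difference of 0.14 (SE 0.14, adjusted p = 0.684) was −0.022 without that library. Summed over the 4 genes, complex II reached 66.9 ± 2.72 FPKM in K29Q and 66.7 ± 3.67 FPKM in WT (SD, n = 3 each). SDHA has copies in the genome (SDHAP1, SDHAP2 and SDHAP3, with 6.93 to 8.43, 3.67 to 6.90 and 2.25 to 3.22 FPKM across the libraries), so its reads may be divided among them and its level is uncertain.

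In complex III all 9 nuclear-encoded genes had log2 differences below 0 (from −0.11 to −0.0014, median −0.045), and 0 of them passed the test (limma, 0 at an unadjusted p under 0.05). This direction depended on the scaling, with 5 of the 9 above 0 after quantile normalization and 4 above 0 after removal of the MT- rows or after the GC and length correction. The median of the 9 genes was 0.0078, −0.010 and −0.025 under these settings, in that order. The median of all genes tested was −0.011, 0.032 and 0.011, so removal of the MT- rows moved both upward. UQCRQ, a small subunit known for binding ubiquinone, had 87.1, 91.1 and 85.1 FPKM in K29Q, against 94.0, 98.7 and 91.7 FPKM in WT. UQCR11, the smallest subunit, had 54.9, 57.9 and 57.1 FPKM in K29Q, against 59.0, 63.3 and 60.4 FPKM in WT. For both genes every K29Q library lay below every WT library, but the differences of −0.11 (SE 0.059, adjusted p = 0.475) and −0.10 (SE 0.058, adjusted p = 0.495) did not pass. Split by flow cell, UQCRQ gave −0.15 on A and −0.12 on B, and UQCR11 gave −0.16 on A and −0.062 on B.

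For other subunits of complex III single libraries stood apart in both groups. CYC1, the haem-bearing cytochrome c1, had 156.0, 125.6 and 121.0 FPKM in K29Q, against 125.8, 127.6 and 153.5 FPKM in WT. K29Q 1 and WT 3 were both high for CYC1, and the difference between the groups was −0.018 (SE 0.12, limma adjusted p = 0.962), turning positive under several other settings given in the closing section. UQCR10, a small subunit next to cytochrome c1, showed the reverse, with 35.3, 54.0 and 47.5 FPKM in K29Q, against 53.8, 54.0 and 37.8 FPKM in WT. The same libraries, K29Q 1 and WT 3, were the low ones for UQCR10. UQCRC1, a core subunit, had 46.0, 47.5 and 52.7 FPKM in K29Q, against 46.1, 60.9 and 45.03 FPKM in WT, where WT 2 was the high one. The Rieske iron-sulphur protein UQCRFS1, the core subunit UQCRC2, the hinge protein UQCRH and UQCRB had log2 differences between −0.059 and −0.0014. The summed level was 566.7 ± 14.6 FPKM in K29Q and 586.2 ± 25.03 FPKM in WT (SD, n = 3 each), and the groups overlapped.

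Complex IV held the members furthest below 0 beside ATP5G2. Of its 12 nuclear-encoded genes 9 lay below and 3 above 0, with a median of −0.077, and 0 passed the test (limma, 1 at an unadjusted p under 0.05). The median stayed below 0 under every alternative, from −0.13 to −0.013. COX6B2, the testis-enriched form of the subunit that joins the monomers of the enzyme on the outer side of the membrane, had 1.22, 1.18 and 1.05 FPKM in K29Q, against 1.66, 1.41 and 1.63 FPKM in WT. Every K29Q library lay below every WT library, at a ratio of means of 0.736. The log2(FPKM + 1) difference of −0.25 (SE 0.076, 95% confidence interval −0.43 to −0.073) understates the change of a gene this low, and the adjusted p of 0.348 did not pass. COX6B2 was also the member just inside the filter on level. COX8A, a small structural subunit and the most abundant nuclear-encoded member, had 282.4, 314.2 and 274.7 FPKM in K29Q, against 315.6, 347.4 and 311.4 FPKM in WT. Only K29Q 2 overlapped with WT for COX8A, and the difference was −0.16 (SE 0.076, adjusted p = 0.429), with −0.22 on flow cell A and −0.19 on flow cell B.

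Of the remaining structural subunits of complex IV, COX4I1, whose matrix side takes part in regulation by ATP, had 28.2, 30.4 and 28.2 FPKM in K29Q, against 29.6, 32.1 and 31.2 FPKM in WT. COX5A, its partner on the matrix side, had 45.1, 47.0 and 43.1 FPKM in K29Q, against 46.9, 53.8 and 44.1 FPKM in WT. The groups overlapped for both, with differences of −0.096 (SE 0.063, limma adjusted p = 0.549) and −0.093 (SE 0.085, adjusted p = 0.657). COX5B, the zinc-binding subunit, lay on the other side of 0, with 47.8, 54.4 and 50.3 FPKM in K29Q, against 48.7, 50.2 and 48.1 FPKM in WT (0.050, SE 0.066, adjusted p = 0.765). COX6B1 (116.0 ± 8.42 FPKM in K29Q and 123.4 ± 10.1 in WT), COX7A2 (44.96 ± 3.06 and 46.7 ± 2.17), COX7B (20.2 ± 2.64 and 21.6 ± 2.23), COX7A2L (7.37 ± 0.428 and 7.61 ± 0.452) and COX6A1 (128.7 ± 7.83 and 128.4 ± 5.22; SD, n = 3 each) differed by less than their spread. COX7A2L is known for joining complexes III and IV in supercomplexes. COX6C and COX7C overlapped as well, with differences of 0.017 and −0.067. Summed over the 12 genes, complex IV reached 835.0, 951.8 and 847.4 FPKM in K29Q, against 911.7, 985.6 and 892.2 FPKM in WT, where K29Q 2 overlapped with WT.

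The symbols also matched tissue-restricted isoforms of complex IV, and 5 of these fell below the filter on level. COX6A2, the heart and muscle form of COX6A, was listed at 0 in all 6 libraries. COX4I2, an oxygen-responsive form known from lung, was listed at 0.023, 0.020 and 0.038 FPKM in K29Q and at 0 in all 3 WT libraries. The muscle form COX7A1 had 0.369, 0.518 and 0.563 FPKM in K29Q, against 0.317, 0.464 and 0.515 FPKM in WT. The testis forms COX8C and COX7B2 averaged 0.199 and 0.0113 FPKM over the 6 libraries. In each pair the widely expressed isoform stood far above its partner, with COX6A1 at 122.8 to 137.6 FPKM in K29Q and 124.5 to 134.3 FPKM in WT. The other 5 rows below the filter were UQCRHL (0.496 FPKM), ATP5S (0.461), ATP5J2-PTCD1 (0.293), ATP5L2 (0.139) and ATP5J2LP (0.0913), each given as a mean over all libraries.

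**Figure D3:**
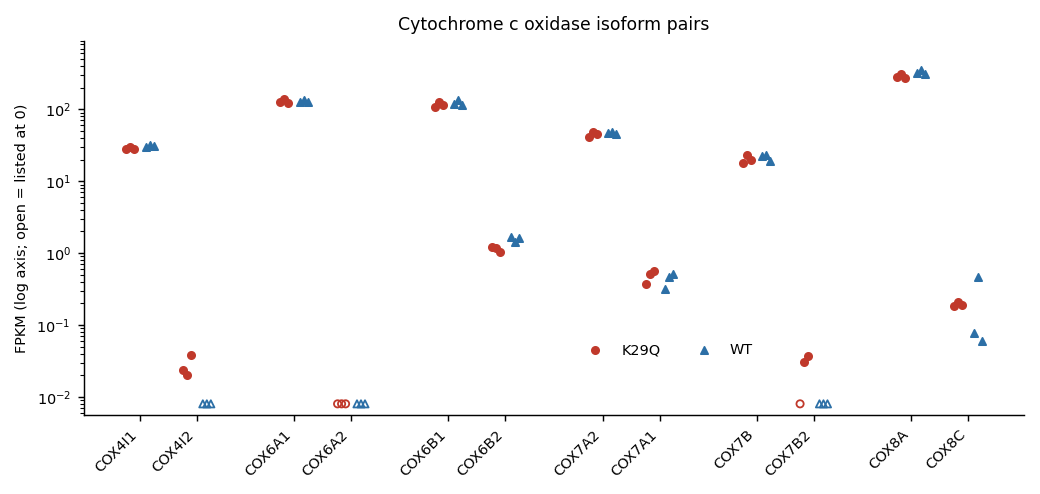
FPKM (log axis) of 6 widely expressed subunits of cytochrome c oxidase and their tissue-restricted partners; red circles are K29Q libraries, blue triangles are WT libraries, and open symbols at the foot of the axis mark libraries listed at 0. COX6B2, at 1.05 to 1.22 FPKM in K29Q and 1.41 to 1.66 FPKM in WT, is the restricted isoform that passed the filter.

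In complex V, 13 of 16 nuclear-encoded genes lay below 0 and 3 above, with a median of −0.053 that stayed below 0 under every alternative (−0.089 to −0.014). The −0.014 came with quantile normalization, where the median of all genes tested was close to it, at −0.011. None of the 16 passed the test (limma, 0 at an unadjusted p under 0.05). ATP5B, the catalytic beta subunit and the most abundant of them, had 237.6, 225.2 and 251.8 FPKM in K29Q, against 257.2, 263.1 and 246.0 FPKM in WT. K29Q 3 overlapped with WT, and the difference was −0.10 (SE 0.064, adjusted p = 0.532), with −0.18 on flow cell A and 0.0013 on flow cell B. The other subunits of the F1 head were split. ATP5D, the delta subunit of the central stalk, had 12.3, 12.2 and 12.5 FPKM in K29Q, against 11.7, 11.96 and 10.8 FPKM in WT, with no overlap and a difference of 0.093 (SE 0.061, adjusted p = 0.551). The alpha subunit ATP5A1 had 19.7, 21.9 and 25.5 FPKM in K29Q, against 26.2, 22.9 and 19.5 FPKM in WT, so both groups spanned the same range. The gamma subunit ATP5C1 and the epsilon subunit ATP5E had differences of −0.052 and −0.0026.

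The ring of c subunits, through which protons cross the membrane, is made from 3 genes that encode the same mature protein. ATP5G1 had 15.2, 15.95 and 14.2 FPKM in K29Q, against 15.8, 18.4 and 16.1 FPKM in WT (−0.14, SE 0.079, limma adjusted p = 0.495). ATP5G3 had 18.9, 19.6 and 18.5 FPKM in K29Q, against 19.3, 21.6 and 18.6 FPKM in WT (−0.054, SE 0.072, adjusted p = 0.766). WT 2 was the high library for both. ATP5G2 had 8.71, 9.50 and 9.08 FPKM in K29Q, against 9.19, 16.2 and 8.84 FPKM in WT. WT 2 alone was high, and the difference of −0.25 (SE 0.21, adjusted p = 0.628) was 0.012 without that library. Summed over the 3 genes, c-subunit mRNA reached 42.8, 45.01 and 41.9 FPKM in K29Q, against 44.3, 56.2 and 43.5 FPKM in WT.

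Among the stator and membrane subunits, ATP5H, the d subunit of the peripheral stalk, had 42.4, 45.1 and 44.1 FPKM in K29Q, against 46.7, 47.9 and 45.8 FPKM in WT. Its groups did not overlap, and the difference was −0.091 (SE 0.056, limma adjusted p = 0.527). ATP5L, the g subunit that helps ATP synthase form dimers, had 37.3, 46.3 and 40.95 FPKM in K29Q, against 44.9, 46.1 and 46.5 FPKM in WT. K29Q 2 overlapped with WT for ATP5L, and the difference of −0.14 (SE 0.084, adjusted p = 0.509) was −0.072 without K29Q 1. The e subunit ATP5I had 61.6, 53.2 and 54.8 FPKM in K29Q, against 54.9, 52.9 and 62.6 FPKM in WT, high in K29Q 1 and WT 3 as CYC1 was. ATP5O, which links the stalk to the head, had 22.7, 25.7 and 20.2 FPKM in K29Q, against 20.7, 21.2 and 28.8 FPKM in WT, with WT 3 apart. The peripheral stalk subunits ATP5J and ATP5F1 and the f subunit ATP5J2 had differences of −0.063, 0.051 and 0.038. ATP5J overlaps GABPA on the opposite strand (chr21:25716503-25735673 and chr21:25734570-25772460 in GENCODE 29 on GRCh38), and since the strand option of the counting is not given, reads in the shared stretch cannot be assigned with certainty. ATP5SL, matched by its symbol, is known as an assembly factor of complex I rather than a subunit of complex V, and had a difference of −0.070. Summed over the 16 genes, complex V reached 661.1, 670.9 and 683.6 FPKM in K29Q, against 699.2, 722.8 and 688.7 FPKM in WT, and the groups did not overlap. The MT- rows took a smaller part of library FPKM in WT 3 (17.05%) than in K29Q 1 to 3 (19.8, 19.8 and 19.1%). Set against the library FPKM outside the MT- rows, the complex V sum of WT 3 fell below those of K29Q 1 to 3. The gap between the sums therefore did not hold with those rows removed. A sum also has no share over all genes to set beside it.

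The 4 mitochondrially encoded members lay above 0 without passing the test. MT-CYB, the cytochrome b of complex III, had 1847, 1853 and 1852 FPKM in K29Q, against 1814, 1795 and 1654 FPKM in WT. Every K29Q library lay above every WT library, and the difference was 0.078 (SE 0.057, limma adjusted p = 0.585). MT-CO2, which receives electrons from cytochrome c, had 6006, 6417 and 6320 FPKM in K29Q, against 6105, 6361 and 5486 FPKM in WT (0.065, SE 0.070, adjusted p = 0.715). MT-CO1, which holds the oxygen-reducing site, and MT-CO3 had differences of 0.012 and 0.063. WT 3 was the lowest library for all 4 genes, and without it the median of the 4 was −0.0073 in place of 0.064. The median was −0.052 on flow cell A and 0.11 on flow cell B. WT 2 was the only WT library on A, and K29Q 3 the only K29Q library on B. The opposite signs thus rest on single libraries, and a part of the flow cell in them was not tested. MT-ATP6, the proton channel subunit of ATP synthase, had 1828, 1818 and 1854 FPKM in K29Q, against 1686, 1782 and 1778 FPKM in WT (0.068, SE 0.051, adjusted p = 0.593). MT-ATP8, its short neighbour on the same transcript, had 2771, 2714 and 2814 FPKM in K29Q, against 2457, 2624 and 2548 FPKM in WT (0.12, SE 0.053, adjusted p = 0.402). Both had groups that did not overlap, higher in K29Q, where 8.8% of all genes tested did so. Of all 13 mitochondrially encoded protein-coding genes, 9 lay above 0 and 4 below. Among these 13, groups did not overlap for 5 that were higher and 1 that was lower in K29Q (46.2%, against 17.8% of all genes). Nuclear copies of mitochondrial genes took reads as well (MTCO1P12 with 476.7 to 586.2 FPKM and MTATP6P1 with 1317 to 1593 FPKM), so the levels of MT-CO1 and MT-ATP6 are uncertain.

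Nuclear and mitochondrial sums were set side by side in each library. The 41 nuclear-encoded members summed to 2125, 2275 and 2151 FPKM in K29Q, against 2248, 2394 and 2217 FPKM in WT, a ratio of means of 0.955, and K29Q 2 overlapped with WT. The 4 mitochondrially encoded members summed to 18764, 20093 and 19804 FPKM in K29Q, against 19125, 20153 and 17435 FPKM in WT, a ratio of 1.034, with overlap. The mitochondrial sum divided by the nuclear sum was 8.83, 8.83 and 9.21 in K29Q, against 8.51, 8.42 and 7.87 in WT, with no overlap between the groups. The quotient was formed after both sums were seen and has no test. FPKM shares 1 total per library, and all MT- rows together took 19.8, 19.8 and 19.1% of it in K29Q, against 19.2, 18.4 and 17.05% in WT.

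**Figure D4:**
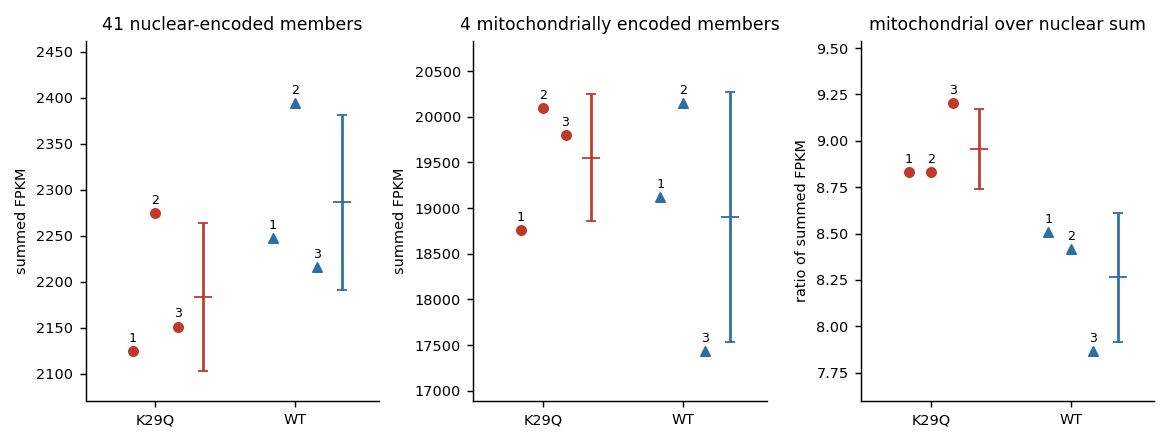
Summed FPKM of the 41 nuclear-encoded members (left) and the 4 mitochondrially encoded members (middle), and the second sum divided by the first (right); numbered points are libraries and bars are mean ± SD of the 3 libraries per group, with K29Q in red left of WT in blue. The vertical axes do not start at 0; the quotient is 8.83 to 9.21 in K29Q and 7.87 to 8.51 in WT.

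The position of the nuclear-encoded members also differed between libraries of the same group. WT 2 was the highest of the 6 libraries for 20 of the 41 genes and above the gene's mean for 36, with a median deviation of 0.089 on the log2 scale. K29Q 1 was the lowest for 15 genes and K29Q 3 for 13, with median deviations of −0.071 and −0.044. K29Q 2 was above the mean for 29 genes, WT 1 for 21 and WT 3 for 16, so neither group was uniform. Leaving out either WT 2 or K29Q 1 left 25 of the 45 members below 0 in place of 33, and 20 above. Median differences of the nuclear-encoded members were −0.13 on flow cell A, where WT 2 was the only WT library, and −0.038 on flow cell B. The 45 members lay on 21 chromosomes, counting the mitochondrial one, and their differences had a Pearson correlation of −0.11 with transcript GC content over the 45 genes, which share the same libraries. Over all genes, deviations had slopes of 0.018, −0.056 and −0.069 per 10% of GC content in K29Q 1 to 3, against −0.041, 0.030 and 0.12 in WT 1 to 3 (log2 scale). After the GC and length correction, 27 of the 41 nuclear-encoded members lay below 0 and their median was −0.049. Members were shorter than other genes, with a median annotated length of 1584 bases against 3247 over all genes tested, and had a median GC content of 46.6% against 49.7%.

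**Figure D5:**
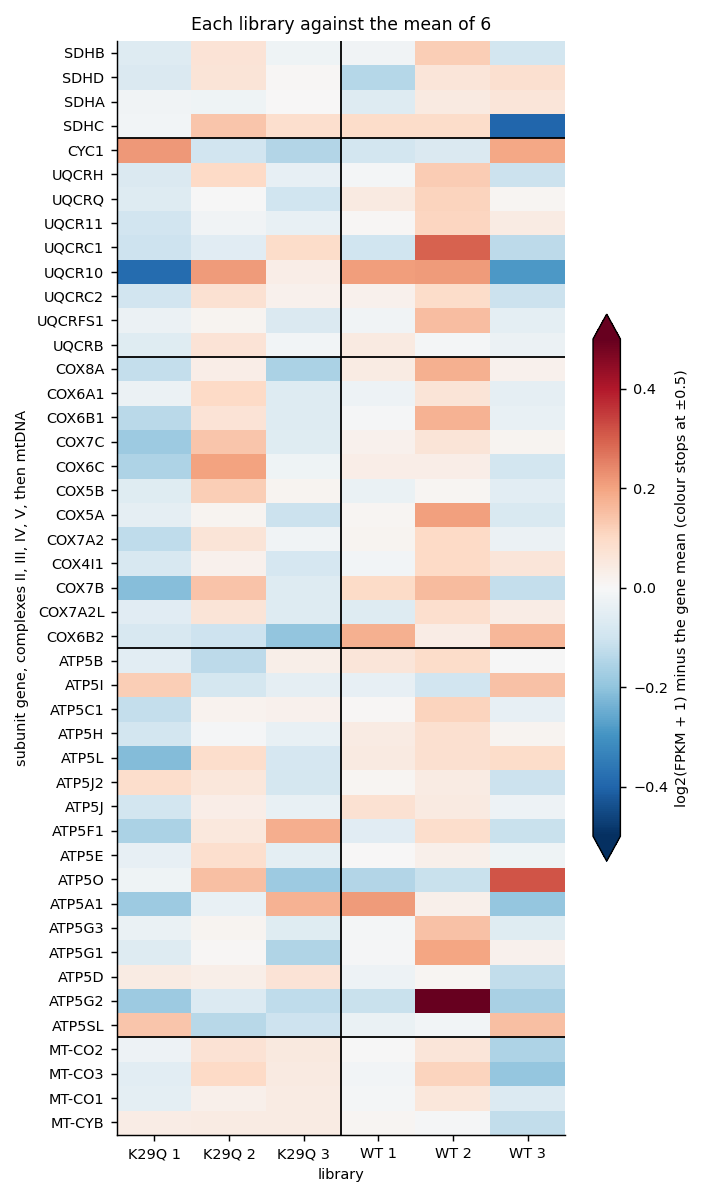
Deviation of each library from the gene's mean over 6 libraries (log2(FPKM + 1), colour stops at ±0.5) for the 45 members by complex, with K29Q libraries left of WT libraries. WT 2 is above the mean for 36 of the 41 nuclear-encoded members, and K29Q 1 and WT 3 share the high values of CYC1 and the low values of UQCR10.

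The promoters of the nuclear-encoded members were read to see which of them hold the letters of known respiratory activators. Of the 41 genes, 33 had a window in the RefSeq promoter table (GRCh38.p14, 250 bases before to 50 after the start site). The NRF1 letters GCGCANGCG were found on either strand in 12 of the 33 genes (36.4%), counting any window of a gene. They were found in 9.0% of all 27305 genes with a window and in 17.7% of the 9441 genes with a window tested here. The ETS letters CCGGAAG, the core read by GABP, were found in 15 (45.5%), against 12.2% of all genes with a window and 23.4% of those tested. The YY1 letters AAGATGGCG were found in 3 (9.1%), against 2.1% and 4.9%. Matches that overlap on both strands were counted once. A match is a description of the sequence and not evidence of binding. The stretches below carry the letters in members of complexes II to V that the results describe, 5′ to 3′ on the gene's strand, with the NRF1 or ETS letters in capitals. They lie at chr5:218144-218319 (plus strand, SDHA), chr11:112086753-112086812 (plus, SDHD), chr19:1605463-1605589 (minus, UQCR11), chr11:63974592-63974618 (plus, COX8A) and chr4:674336-674505 (minus, ATP5I).
SDHA: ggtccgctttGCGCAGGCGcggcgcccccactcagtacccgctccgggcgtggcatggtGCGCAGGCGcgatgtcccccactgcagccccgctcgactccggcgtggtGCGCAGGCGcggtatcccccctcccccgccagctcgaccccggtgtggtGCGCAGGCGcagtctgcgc
SDHD: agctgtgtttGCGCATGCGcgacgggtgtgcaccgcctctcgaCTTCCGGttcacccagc
UQCR11: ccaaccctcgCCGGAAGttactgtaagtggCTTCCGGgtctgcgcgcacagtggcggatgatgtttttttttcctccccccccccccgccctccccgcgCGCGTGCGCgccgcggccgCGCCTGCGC
COX8A: agctccagaaCTTCCGGccagcgcagc
ATP5I: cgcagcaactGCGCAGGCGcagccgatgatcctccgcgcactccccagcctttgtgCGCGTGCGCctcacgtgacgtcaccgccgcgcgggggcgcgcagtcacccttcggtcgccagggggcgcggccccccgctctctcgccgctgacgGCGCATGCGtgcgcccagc

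SDHA held 4 NRF1 matches, at −166, −117, −68 and −19 from the start site, within a repeated stretch. SDHD held 1 NRF1 and 1 ETS match, UQCR11 held 2 of each, COX8A held 1 ETS match at −18, and ATP5I held 3 NRF1 matches. The window of ATP5I also held 1 ETS match, at position 3 past the start site and outside the stretch shown. The letters did not sort the members by their differences: of the 22 genes with NRF1 or ETS letters 19 lay below 0 (median −0.056), and of the 11 with neither 10 did (median −0.067).

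The rest of the respiratory pathway was described with lists of the same kind, and in each of them 0 genes passed the limma test. These lists were not counted under the alternatives, so how far their counts move with the libraries and the scaling is not known. Of 38 nuclear-encoded subunits of complex I, 32 lay below 0 and 6 above (median −0.073), with 5 at an unadjusted p under 0.05, all lower, which is 13.2% of them. Of all genes tested, 4.89% were lower and 7.65% higher in K29Q at an unadjusted p under 0.05. The 7 mitochondrially encoded subunits of complex I were split, with 4 below and 3 above. Of 38 assembly factors of complexes II to V, 24 lay below and 14 above (median −0.018), with 1 higher and 3 lower at an unadjusted p under 0.05. COX20, a chaperone for the newly made MT-CO2 protein, had 14.1, 14.9 and 14.4 FPKM in K29Q, against 13.3, 12.1 and 11.6 FPKM in WT (0.21, SE 0.068, adjusted p = 0.365). UQCC2, needed for making cytochrome b, had 9.87, 9.41 and 9.69 FPKM in K29Q, against 10.8, 10.6 and 11.1 FPKM in WT (−0.15, SE 0.057, adjusted p = 0.389). Neither gene overlapped between the groups, with COX20 higher and UQCC2 lower in K29Q. In this list 2 genes were higher and 4 lower without overlap, 15.8% of it, against 17.8% of all genes. The 3 subunits and 1 inhibitor that the symbol rule misses all lay below 0. C14orf2, a small subunit of ATP synthase, averaged 11.6 ± 0.685 FPKM in K29Q and 13.3 ± 1.17 FPKM in WT (SD, n = 3 each), and ATPIF1, the inhibitor that blocks reverse action of ATP synthase, averaged 50.2 ± 2.91 and 55.2 ± 0.842 FPKM (limma adjusted p = 0.407 and 0.424).

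Genes that feed the complexes were counted in the same way. Of 15 genes for cytochrome c, ubiquinone synthesis and other donors to ubiquinone, 10 lay below and 5 above 0. ETFB, a subunit of the flavoprotein that brings electrons from fatty acid oxidation, had 8.61, 9.204 and 8.38 FPKM in K29Q, against 9.67, 10.6 and 10.6 FPKM in WT (−0.21, SE 0.067, limma adjusted p = 0.363). COQ5, a methyltransferase of ubiquinone synthesis, had 10.1, 10.8 and 10.1 FPKM in K29Q, against 12.4, 12.7 and 10.1 FPKM in WT (−0.16, SE 0.093, adjusted p = 0.507). Every K29Q library lay below every WT library for ETFB, while WT 3 was down among the K29Q libraries for COQ5. Of 13 tricarboxylic acid cycle enzymes, 10 lay below and 3 above (median −0.082). Groups did not overlap for 5 of them that were lower and 1 that was higher in K29Q, 46.2% of the list, against 17.8% of all genes. DLD, a shared subunit of the 2-oxoacid dehydrogenases, had 16.5, 16.3 and 16.2 FPKM in K29Q, against 15.7, 13.99 and 12.6 FPKM in WT (0.21, SE 0.085, adjusted p = 0.394).

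Of 20 genes for maintenance, transcription and RNA handling of mitochondrial DNA, 10 lay above and 10 below 0. FASTKD1, a mitochondrial RNA-binding protein, had 5.43, 4.86 and 5.70 FPKM in K29Q, against 4.72, 4.36 and 4.01 FPKM in WT, with no overlap (0.24, SE 0.082, limma adjusted p = 0.371). LRPPRC, which stabilises mitochondrial mRNAs, had 21.3, 20.2 and 21.9 FPKM in K29Q, against 21.2, 16.8 and 16.2 FPKM in WT (0.22, SE 0.10, adjusted p = 0.429). Of 8 transcription regulators of respiratory genes 7 could be tested, and 6 lay below 0. ESRRA, a nuclear receptor that activates respiratory genes, had 11.3, 10.2 and 9.59 FPKM in K29Q, against 15.8, 11.1 and 19.1 FPKM in WT. WT 2 overlapped with K29Q, and the difference of −0.50 (SE 0.18, adjusted p = 0.380) was −0.045 on flow cell A and −0.80 on flow cell B. GABPA, the DNA-binding subunit of GABP, had 6.58, 5.56 and 6.45 FPKM in K29Q, against 6.43, 4.50 and 4.52 FPKM in WT (0.24, SE 0.13, adjusted p = 0.484).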

How the data were processed

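The values the authors deposited are FPKM per gene and library, as the file headers name them. The submitters' processing notes name HISAT2 2.1.0, StringTie and the build GRCh38. The StringTie version, annotation and strand option were not given in the sources used here. FPKM values are not counts, and reads could not be recovered: 39.6 to 42.7% of low values of single-exon genes longer than 600 bases fell within 0.05 of a whole step, where 10% would by the tolerance. Each library's depth was the candidate with the largest such share in a search over a fixed range. The 10% holds for a depth set in advance and not for the best of many. Genes with at least 1 FPKM in 3 or more libraries (13261) were fitted as log2(FPKM + 1) with limma 3.58.1 in R 4.3.3, with an intensity trend and the group as the only term, and Benjamini-Hochberg adjustment over all of them. The threshold was an adjusted p of 0.05. The fit was tested on simulated data with noise drawn independently for each gene and library. That test does not cover variation shared by many genes of a library. All differences refer to log2(FPKM + 1), and this scale understates changes of low genes. No 2 libraries were identical (correlations 0.978 to 0.987), and 0 columns belonged to other samples. Positions, lengths and GC content came from GENCODE 29 on GRCh38 by gene ID (57055 of 60675 IDs and all 45 members matched), and promoter letters from RefSeq (GRCh38.p14). The groups came from the sample titles.

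The members and lists were chosen with earlier results of these data known. Named members were, within each complex and the mitochondrially encoded members, the 2 with the smallest p and the 1 with the highest level, every member of an isoform family, every member without overlap at an unadjusted p under 0.05, and from each list up to 2 genes with the smallest p. One gene that this rule names is not reported here. The alternatives were a pseudocount of 0.1, no filter, a mean FPKM of at least 5, quantile normalization, removal of MT- rows with rescaling, the replicate number or the flow cell as a term, a GC and length correction, and each library left out in turn. Leaving out K29Q 1 and WT 3 together, and counting MT-ATP6 and MT-ATP8 as members, were added after the data were seen.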

Additional observations from a re-analysis of the deposited data

How the results depend on the processing

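With every alternative 0 members passed the threshold, and the lowest adjusted p of any member (limma) was 0.214, for COX6B2 without WT 1. The median of the nuclear-encoded members stayed below 0, between −0.083 and −0.012. With quantile normalization it was −0.015, close to the −0.011 of all genes tested. With a mean FPKM of at least 5 it was −0.049, where all genes tested had −0.017. Of 45 members, 12 lay above 0, and 9 to 20 when 1 library was left out. Over all genes, 7 passed, against 2 with no filter, 13 with quantile normalization, 4 with a flow cell term, 81 with the GC and length correction and 5 to 20 when 1 library was left out. With the replicate number as a block 3 genes passed, also with the GC and length correction. Same-numbered libraries had correlations of their deviations of −0.14, 0.18 and −0.17, so the numbers do not pair the samples. K29Q 1 correlated best with WT 3 (0.25) and K29Q 3 with WT 1 (0.21), not with their own numbers, and every other pair of unlike numbers was below 0. Of 395 values of named genes, 26 changed sign, and the cause was not tested. The 395 include values that could not change sign, since removing or raising the filter and adding the block leave the differences as they are. The block with the GC and length correction likewise repeats the differences of that correction. The log2 differences were 0.014 for SDHB and 0.025 for CYC1 with quantile normalization. They were 0.0058 for SDHA, 0.024 for SDHB and 0.017 for CYC1 with MT- rows removed. They were 0.021 for SDHA, 0.041 for SDHB, 0.055 for CYC1 and −0.049 for COX6A1 with the GC and length correction, with or without the block. COX6A1 was −0.030 with a flow cell term and −0.0027 without K29Q 1 and WT 3. With 1 library left out, SDHB ran from −0.058 to 0.049, CYC1 from −0.13 to 0.073, COX6A1 from −0.045 to 0.036, ATP5G3 from −0.097 to 0.0062, ATP5G2 from −0.39 to 0.012 and SDHC from −0.022 to 0.22. Quantile normalization brought the median of the mitochondrially encoded members to 0, as it gives rows of equal rank equal values. COX6B2 was not tested with a mean FPKM of at least 5. The depth is not stated, so no counting error could be given for any member.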
